A study of Homo sapiens with 8 samples.

Results

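The 10 alpha and beta tubulin genes TUBA1A, TUBA1B, TUBA1C, TUBA4A, TUBB, TUBB2A, TUBB2B, TUBB3, TUBB4B and TUBB6 were followed among the 18955 genes of a single-cell RNA table of SUM159 cells. They were taken by name, as the family that paclitaxel binds, though with earlier results of these data known. Of the 10, 9 had a row under their own symbol, and TUBB3 had only a row written TUBB3.1, the mark that R gives to a further row of the same symbol. Levels are given as CPM, the UMIs of a gene per 1000000 UMIs of its library, and a UMI stands for 1 captured RNA molecule counted at its 3′ end, so no gene length enters.

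SUM159 is a human cell line from a triple-negative breast cancer, and all groups, controls included, carried a ClonTracer library of lentiviral DNA barcodes. Of the 8 libraries, 1 was of the cells before any drug (pre-treatment) and 1 of cells kept in the vehicle DMSO. The others were of cells kept in 0.6 nM paclitaxel, which stabilises microtubules, 160 nM palbociclib, an inhibitor of the cell-cycle kinases CDK4 and CDK6, 100 nM JQ1, an inhibitor of BET bromodomain proteins that had 2 libraries (JQ1-A and JQ1-B), or JQ1 with either partner at the same doses. The vehicle, paclitaxel, JQ1-A and JQ1+paclitaxel libraries came from 1 experiment, and those of palbociclib, of JQ1-B and of JQ1+palbociclib from another, for which no vehicle library was analysed here. Passaging lasted up to 18 passages, parallel cultures of a treatment were pooled into 1 library, and a JQ1+palbociclib culture had been lost. A library thus stands for a pool of surviving clones, with no separate replicate of any treatment except JQ1.

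Microtubules are polymers of alpha and beta tubulin heterodimers, and vertebrates encode each subunit in several genes whose products, the isotypes, differ mostly in their acidic carboxy-terminal tails. Cells need microtubules for transport and, in mitosis, for the spindle. Paclitaxel binds beta tubulin inside the polymer. Tubulin messages are also subject to autoregulation, in which free tubulin dimers lead to decay of tubulin mRNA during translation, through the factor TTC5, which recognises the amino terminus of the nascent chain.

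The start and end of the coding sequence are shown because they carry the features that separate alpha from beta tubulin and one alpha isotype from another. In the first 12 coding bases, capitals mark codon 4. It read TGC, for cysteine, in all 4 alpha genes and ATC, for isoleucine, in all 6 beta genes, and the bases before it spelled methionine, arginine and glutamate in both classes. In the last 30 coding bases, capitals mark the last codon before the stop. Those of TUBA1C ended on a tyrosine codon, whereas those of TUBA4A ended on a glutamate codon.
TUBA1B start: atgcgtgagTGC
TUBA4A start: atgcgtgaaTGC
TUBB start: atgagggaaATC
TUBB2A start: atgcgcgagATC
TUBA1C end: gacggagaggatgagggtgaagagTATtaa
TUBA4A end: tatgaggacgaggatgagggagaaGAAtaa
TUBB end: ttcggtgaggaggccgaagaggagGCCtaa
TUBB4B end: gaggaggaggctgaggaggaggtgGCCtag

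All of these were read from GRCh37 transcripts of GENCODE 44. TUBA1B lay on the minus strand at chr12:49521565-49525180 and TUBA1A on the minus strand at chr12:49578469-49582863, where its 5′ end overlapped that of TUBA1C on the plus strand at chr12:49582519-49668383. TUBA4A lay on the minus strand at chr2:220114432-220142624, TUBB on the plus strand at chr6:30685212-30693315, and TUBB4B on the plus strand at chr9:140135739-140138159. The transcripts used had 4 exons each. Because reads that match several genes are dropped or shared in counting, the last 400 transcript bases, where 3′ tags fall, were searched for windows of 50 bases that also occur in another gene. None did in TUBA1C, TUBA4A, TUBB, TUBB2B and TUBB6. The share was 13.7% of windows in TUBA1A, 29.3% in TUBB4B, 35.6% in TUBA1B, which shared with TUBA1A, TUBA1C and the pseudogene TUBAP2, and 42.7% in TUBB2A, so the levels of these 4 are less certain than those of the others. In TUBB3 it was 98.6%, all of it shared with an annotated gene that overlaps TUBB3. The row TUBB3.1 is therefore given as that row only and not as the level of TUBB3.

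The libraries held 459 to 1024 cells and 10621159 to 24240835 UMIs, and their mean UMIs per cell lay between 22305 and 24171, so RNA content per cell was not compared. VIM (3279 to 4502 CPM), KRT8, KRT18 and CD44 were present in every library, ESR1 and PGR stayed at or below 0.139 CPM, and the leukocyte marker PTPRC did not exceed 0.471 CPM. The other leukocyte, erythroid and neuronal markers with a row were at 12.1 CPM or less. Of the cell barcodes, which mark single cells in sequencing and are not the ClonTracer barcodes, 13 occurred in more than 1 library, on 26 of 5738 cells. They carry no information on shared clones.

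TUBA1B was the most abundant isotype in every library, followed by TUBB. TUBA1B, a ubiquitous alpha isotype, stood at 1630.2 CPM in pre-treatment, 1829 in DMSO, 1827 in paclitaxel, 1266 in JQ1-A, 1415 in JQ1+paclitaxel, 799.9 in palbociclib, 1239.5 in JQ1-B and 665.9 in JQ1+palbociclib. TUBB, the main beta isotype of these cells, stood at 1006 CPM in pre-treatment, 1347 in DMSO, 1026 in paclitaxel and 769 in palbociclib, and at 741 in JQ1-A, 736 in JQ1-B, 677 in JQ1+paclitaxel and 579 in JQ1+palbociclib. The 2 libraries with palbociclib were the lowest for TUBA1B, while for TUBB the 4 libraries with JQ1 were the lowest.

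TUBB4B and TUBA1C came next. TUBB4B, a beta isotype that is also used in cilia, stood at 396 CPM in pre-treatment, 542 in DMSO, 631 in paclitaxel, 398 in JQ1-A, 443 in JQ1+paclitaxel, 182 in palbociclib, 499 in JQ1-B and 335 in JQ1+palbociclib. TUBA1C ranged from 187 CPM in JQ1+palbociclib to 466 in paclitaxel, and exceeded TUBB4B only in the palbociclib library, at 202 against 182 CPM. TUBB6 ranged from 78.3 to 194 CPM, TUBA4A from 53.7 to 140 and TUBB2A from 30.3 to 69.7.

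TUBB2B and the row TUBB3.1, which stand for isotypes best known from neurons, were close to the floor. TUBB2B had 2 to 33 UMIs in a library, or 0.110 to 2.3 CPM, with the lowest value in paclitaxel and the highest in JQ1+paclitaxel. TUBB3.1 had 32 to 106 UMIs, or 2.27 to 5.22 CPM. A count of 3, the number of UMIs that a count of 0 still allows, corresponds to 0.124 to 0.282 CPM in these libraries. Both rows missed the filter of at least 5 CPM in at least 2 libraries, so 8 of the 10 isotypes were tested for differences over all cells.

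**Figure D1:**
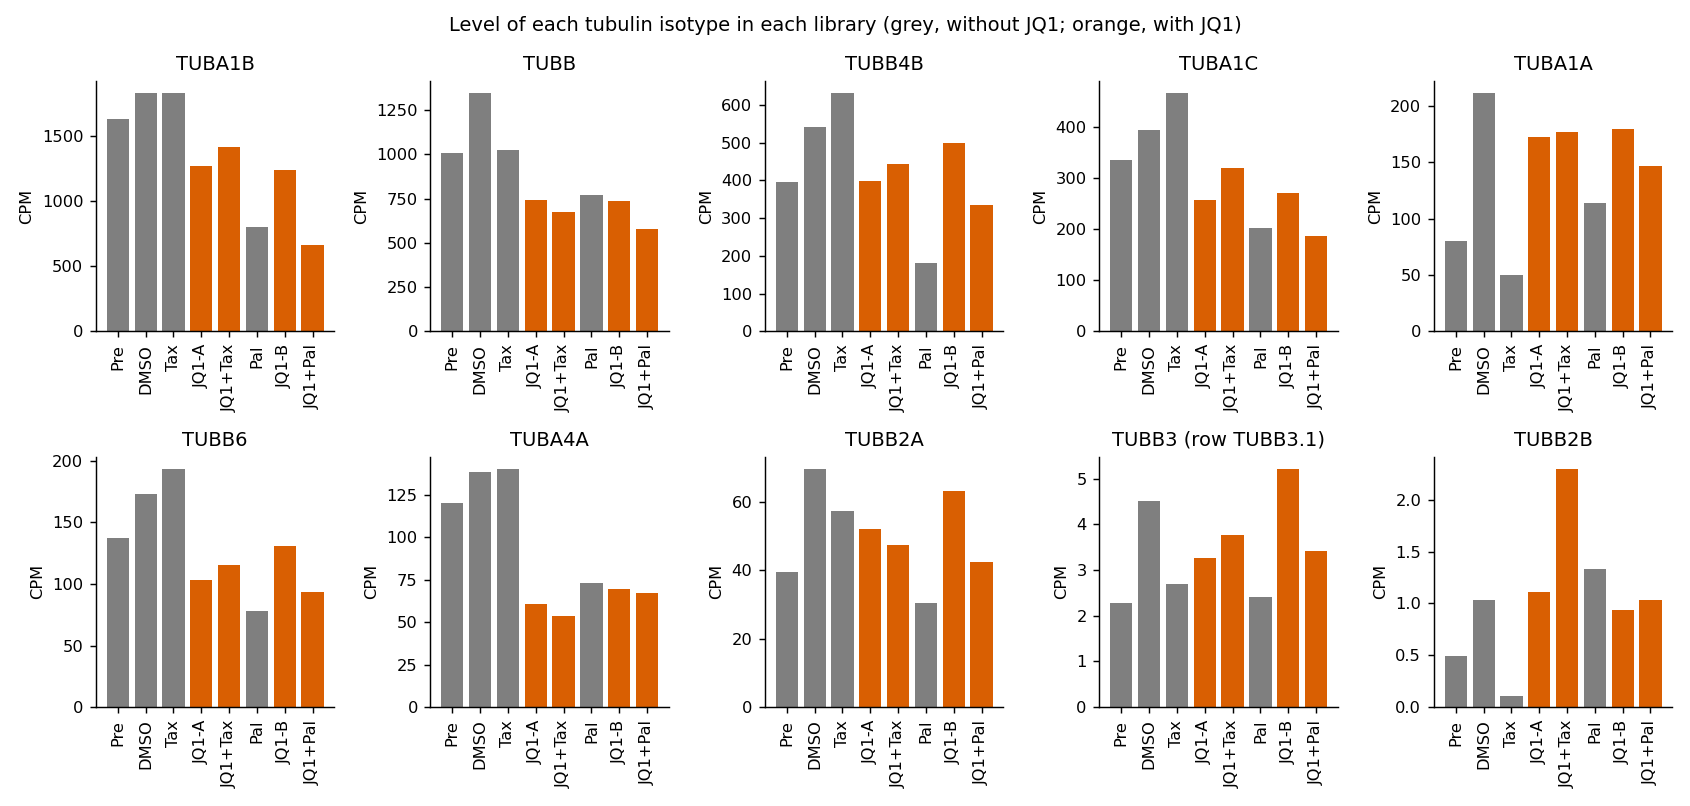
CPM of each of the 10 isotypes (y axis, from 0, a separate scale in each panel) in the 8 libraries (x axis), with 1 bar for each library, grey without JQ1 and orange with JQ1 (Pre, pre-treatment, Tax, paclitaxel, Pal, palbociclib, here and in the other plots). TUBA1B is lowest in the 2 palbociclib libraries at 665.9 and 799.9 CPM, TUBA4A and TUBB are lowest in the 4 JQ1 libraries, and TUBA1A is lowest in paclitaxel at 50.2 CPM.

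The 10 isotypes together made up 0.212% of all UMIs in JQ1+palbociclib and 0.225% in palbociclib, 0.305% in JQ1-A, 0.319% in JQ1-B, 0.325% in JQ1+paclitaxel, 0.375% in pre-treatment, 0.439% in paclitaxel and 0.471% in DMSO. The highest total was 4709 CPM and the lowest 2121 CPM. The only repeated treatment gave a measure of spread, since the total of JQ1-A was 0.956 times that of JQ1-B, with a 95% exact interval of 0.945 to 0.968. That interval, like all intervals here, covers counting error only. JQ1-B and JQ1+paclitaxel, neighbours in the order at 3194 and 3254 CPM, differed by less than these repeats did. JQ1+palbociclib stood at 0.942 times palbociclib and paclitaxel at 0.933 times DMSO, somewhat farther apart than the repeats.

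Within the tubulin total, the order of the main isotypes was stable and their shares were not. TUBA1B, TUBB and TUBB4B together took 74.5% (JQ1+palbociclib) to 80.9% (pre-treatment) of tubulin UMIs. The TUBA1B share was 31.4% in JQ1+palbociclib and 35.5% in palbociclib, and 38.8 to 43.5% in the 6 libraries without palbociclib. The TUBB share was highest in palbociclib at 34.1% (33.7 to 34.6, 95% exact binomial interval) and lowest in JQ1+paclitaxel at 20.8% (20.4 to 21.2).

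Alpha genes made up slightly more of the tubulin UMIs than beta genes in every library. The alpha share of tubulin UMIs was 57.8% in pre-treatment, 54.6% in DMSO, 56.5% in paclitaxel, 57.5% in JQ1-A, 60.4% in JQ1+paclitaxel, 52.8% in palbociclib, 55.1% in JQ1-B and 50.3% in JQ1+palbociclib. Its mean was 51.5% ± 1.79 (SD, n = 2) with palbociclib and 57.0% ± 2.1 (n = 6) without, and these did not overlap. With JQ1 it was 55.8% ± 4.28 (n = 4) against 55.4% ± 2.18 (n = 4) without, a difference well inside the spread. These shares are descriptions and were not tested.

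**Figure D2:**
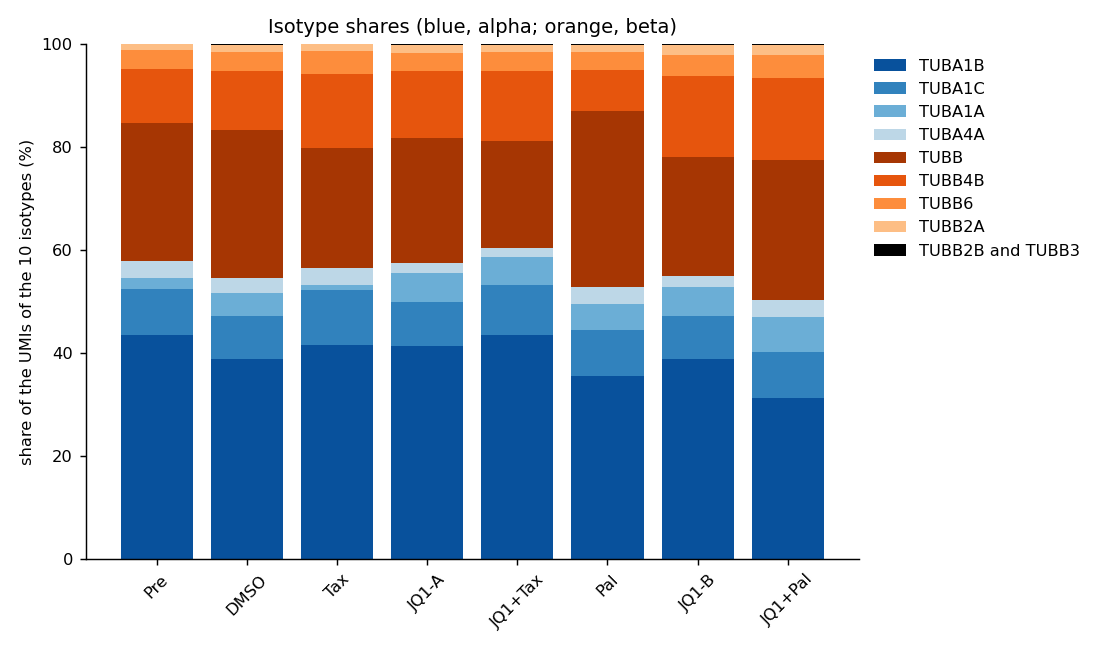
Share of each isotype (y axis, percent of the UMIs of the 10 isotypes) in the 8 libraries (x axis), as stacked bars with alpha isotypes in blue and beta isotypes in orange, TUBB2B and TUBB3.1 being the thin black top. The alpha part falls between 50.3% in JQ1+palbociclib and 60.4% in JQ1+paclitaxel.

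To ask how each drug moved the isotypes, UMIs were summed per library and 9288 genes were tested with the quasi-likelihood test of edgeR. Each drug was an additive term, JQ1 present in 4 of the 8 libraries and palbociclib and paclitaxel in 2 each. Adjusted p-values are Benjamini-Hochberg over all of these genes, a call means an adjusted p under 0.05, and fold changes are log2 on the scale of the TMM factors, given with an approximate SE. On that scale the median gene moved by less than 0.02 with any drug. On library totals alone it moved by -0.20 with JQ1, so a CPM difference with JQ1 looks lower than the same difference after TMM. Since pools of clones stood behind single libraries, p-values measure the spread between these libraries.

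With JQ1, TUBA4A and TUBB were lower. TUBA4A, the alpha isotype whose gene ends on a glutamate codon, stood at 60.7, 53.7, 69.5 and 67.4 CPM in JQ1-A, JQ1+paclitaxel, JQ1-B and JQ1+palbociclib, and at 120.1, 138, 140.3 and 72.9 CPM in pre-treatment, DMSO, paclitaxel and palbociclib. In CPM the groups did not overlap, although palbociclib came close. The means were 62.8 ± 7.14 (SD, n = 4) and 118 ± 31.3 CPM (n = 4), and TUBA4A fell by 0.67 ± 0.16 (SE) on the log2 scale, with an adjusted p of 0.0135. TUBB fell by 0.39 ± 0.10, with an adjusted p of 0.0207, from 1037 ± 238 CPM without JQ1 to 683 ± 75.4 CPM with it. The groups again did not overlap in CPM, though JQ1-A at 741 CPM lay close to palbociclib at 769 CPM. The TMM factors were 0.926 in JQ1-A, 0.946 in JQ1-B and 0.9996 in palbociclib. These differ by more than the gaps in CPM, so for both isotypes the separation holds in CPM only.

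These calls were 2 of 8 tested isotypes, where 19.7% of all tested genes were called lower with JQ1 and 17.8% higher, so the share was near that of all genes. The same 2 of 8 had lower CPM without overlap, beside 22.7% of all genes. The TUBA4A call was lost without JQ1-A (log2 fold change -0.62), and the TUBB call without DMSO (-0.30), JQ1-A (-0.39) or JQ1-B (-0.37). With the experiment as a further term, TUBA4A had -0.70 (adjusted p = 0.102) and TUBB -0.43 (adjusted p = 0.107). Within the JQ1+paclitaxel experiment alone, a fit of 4 libraries, both were called, at -0.99 (adjusted p = 0.000699) and -0.44 (adjusted p = 0.0243), beside 30.4% of all genes in either direction.

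No isotype was called higher with JQ1 in the fit of all 8 libraries. TUBA1A, an alpha isotype best known from the developing brain, stood at 172, 176, 180 and 147 CPM in JQ1-A, JQ1+paclitaxel, JQ1-B and JQ1+palbociclib, inside the span of the libraries without JQ1, which were 80.1 in pre-treatment, 212 in DMSO, 50.2 in paclitaxel and 114 in palbociclib. Its log2 fold change was 0.86 ± 0.35, with an adjusted p of 0.0847. It was called in 4 alternatives. Within the JQ1+paclitaxel experiment alone the value was 1.04 ± 0.32 (adjusted p = 0.0187), and without the DMSO library it was 1.29 (adjusted p = 0.0222), beside 24.6% of all genes called there. The value for that experiment joins steps in opposite directions. JQ1-A stood at 0.813 times DMSO (0.769 to 0.860), and JQ1+paclitaxel at 3.51 times paclitaxel (3.26 to 3.79), the lowest library. Without a filter on low counts it was 0.87, beside 22.2% of all genes, and the last of the 4 was a fit on cells with few mitotic UMIs, given further down. As a share of the tubulin total, TUBA1A made up 5.42 to 6.91% in the JQ1 libraries and 1.14 to 5.07% in the others.

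The other 5 tested isotypes had log2 fold changes of -0.20 (TUBA1C) to 0.29 (TUBB2A) with JQ1 and were not called. For TUBA1B the value was -0.19 ± 0.08, with an adjusted p of 0.0962, and on library totals it was -0.39 and called (adjusted p = 0.00631), as was TUBA1C at -0.40 (adjusted p = 0.0183). TUBB4B had 0.25 ± 0.19 in the fit of all libraries and -0.18 within the JQ1+paclitaxel experiment, and its mean CPM was 419 ± 69.4 with JQ1 and 438 ± 196 without, so it had no stable direction. The median log2 fold change of the 8 isotypes was -0.16, beside -0.0032 over all tested genes.

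Palbociclib went with lower TUBA1B. The 2 libraries with palbociclib held 799.9 and 665.9 CPM, and the 6 others 1239.5 to 1829, all of them higher. The means were 733 ± 94.8 (SD, n = 2) and 1534 ± 266 CPM (n = 6). TUBA1B fell by 0.97 ± 0.11 (SE) on the log2 scale, with an adjusted p of 0.0290. It was 1 of only 7 genes called lower with palbociclib, 0.0754% of those tested, while 0.205% were called higher. Those counts were not stable, as the genes called in either direction numbered 26 here, 0 to 938 with 1 library left out, 205 without a filter and 515 by DESeq2.

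Every tested isotype had a fold change below 0 with palbociclib, and the median of the 8 was -0.59, beside 0.01 over all tested genes. This direction was not particular to the isotypes. Of gene lists described further down, 30 of 30 mitotic genes (median -0.43), 17 of 21 S-phase genes (-0.32) and 17 of 20 tubulin folding genes (-0.22) were below 0. Fewer were in the lists of the gamma tubulin ring (6 of 11), microtubule binding (9 of 20) and tubulin modification (4 of 11). TUBB4B had -0.81 ± 0.24 (adjusted p = 0.114), TUBA1C -0.62 ± 0.11 (adjusted p = 0.0706), TUBB6 -0.59 ± 0.18 (adjusted p = 0.125) and TUBB2A -0.59 ± 0.22 (adjusted p = 0.182). In CPM, 4 of the 8 tested isotypes, TUBA1B, TUBA1C, TUBB4B and TUBB6, were lower in both palbociclib libraries than in any other, beside 5.1% of all genes. TUBB6, a beta isotype of many non-neuronal tissues, held 78.3 and 93.5 CPM against 103 to 194. DESeq2 called 5 of the 8, TUBA1B, TUBA1C, TUBB, TUBB4B and TUBB6, beside 5.54% of all genes.

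The palbociclib call for TUBA1B depended on which libraries entered, and with the experiment as a further term it was lost at -0.92 ± 0.21 (adjusted p = 0.898), a fit in which no gene was called. Its fold change lay between -0.99 and -0.93 whichever single library was left out, but the call was lost without pre-treatment, DMSO, JQ1-A, palbociclib or JQ1-B, with adjusted p-values of up to 0.164. Within the palbociclib experiment, the ratio of JQ1+palbociclib to JQ1-B was 0.537 for TUBA1B (0.527 to 0.548), 0.787 for TUBB (0.769 to 0.805), 0.672 for TUBB4B (0.652 to 0.692) and 0.969 for TUBA4A (0.902 to 1.04), each between 1 library and another and so without a test.

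**Figure D3:**
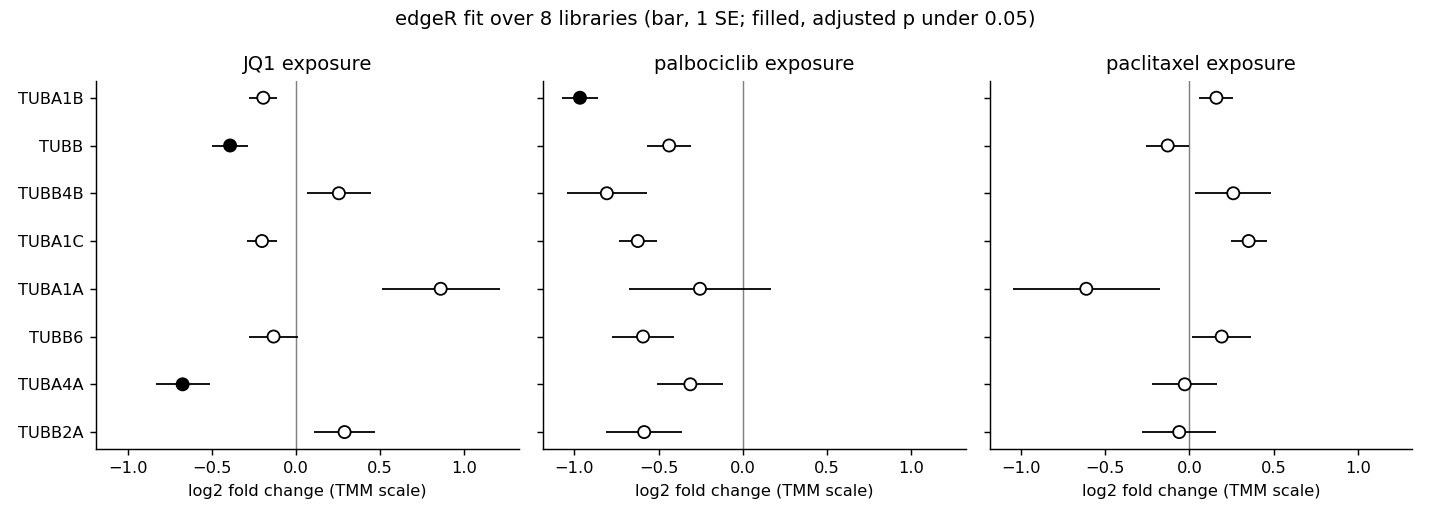
Log2 fold change (x axis, TMM scale) of the 8 tested isotypes (y axis) with JQ1, palbociclib and paclitaxel, with bars of 1 SE and filled points for an adjusted p under 0.05. TUBA4A and TUBB are filled for JQ1 and TUBA1B for palbociclib, all 3 below 0, and every isotype lies below 0 for palbociclib.

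The levels of genes of dividing cells and the mitochondrial share are given beside these results. The summed level of 30 mitotic genes that include no tubulin was 1823 to 2288 CPM in the 4 libraries with JQ1 and 2083 to 4078 CPM without, and 1823 and 2083 CPM in the 2 libraries with palbociclib and 2104 to 4078 CPM in the others. The summed level of 21 S-phase genes was 723 to 831 CPM with JQ1 and 664 to 1456 CPM without, and 664 and 753 CPM with palbociclib and 723 to 1456 CPM without. With JQ1 all of these ranges overlapped, and with palbociclib the mitotic sum and the mitochondrial share did not. Mitochondrial RNA made up, in the median cell, 4.69 to 7.18% with JQ1 and 3.72 to 5.58% without, and 5.58 and 7.18% with palbociclib and 3.72 to 5.35% without, and its part in the tubulin differences was not tested. Of the mitotic genes, 17 of 30 were called lower and 1 higher with JQ1, beside 19.7% and 17.8% of all genes, and 1 was called lower with palbociclib, beside 0.0754%. Of the S-phase genes, 8 of 21 were called lower with JQ1 and none with palbociclib. In libraries pooled over all cells, fewer dividing cells and less tubulin RNA per cell cannot be told apart. The ranking of cells described further down compares cells thinned to equal UMIs, so it does not measure RNA per cell. The cause was not tested.

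Paclitaxel, which binds the beta subunit, was followed by no called change in any isotype. No gene of the 9288 was called for paclitaxel by edgeR (0%), 395 had an unadjusted p under 0.05, and DESeq2 called 9, none of them a tubulin. TUBA1C had the highest fold change among the isotypes, 0.35 ± 0.11, with an adjusted p of 0.884. It held 466 CPM in paclitaxel and 393 in DMSO, and 320 CPM in JQ1+paclitaxel and 257 in JQ1-A. The other isotypes lay between -0.61 ± 0.44 (TUBA1A) and 0.26 ± 0.23 (TUBB4B). TUBB, the most abundant beta isotype, had -0.13 ± 0.13.

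Side by side, the paclitaxel library stood apart from DMSO in 1 isotype. The ratio of paclitaxel to DMSO was 0.237 for TUBA1A (0.220 to 0.257), 0.762 for TUBB (0.745 to 0.779), 0.999 for TUBA1B, 1.17 for TUBB4B and 1.19 for TUBA1C. TUBA1A was the 1 of 8 tested isotypes past 1.5-fold, beside 17.9% of all tested genes. Under JQ1 the same step, JQ1+paclitaxel over JQ1-A, gave 1.03 for TUBA1A (0.972 to 1.08) and ratios of 0.884 to 1.25 for the 8 tested isotypes, none past 1.5-fold, beside 4.25% of all genes.

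TUBA1A was also the isotype that separated the 2 untreated libraries most among those tested. DMSO held 2.64 times as much as pre-treatment (2.46 to 2.84), and TUBB2A 1.77 times (1.58 to 1.98). These were 2 of 8 past 1.5-fold, beside 5.89% of all genes. The pre-treatment and paclitaxel libraries, at 80.1 and 50.2 CPM, were the lowest of the 8 and DMSO, at 212 CPM, the highest. Between the repeated JQ1 libraries, JQ1-A over JQ1-B, no tested isotype was past 1.5-fold, beside 3.15% of all genes, and TUBA1A had a ratio of 0.958.

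The interaction terms asked whether a partner drug acted differently on an isotype with JQ1. For JQ1 and paclitaxel, 0.388% of genes had a called interaction, and for JQ1 and palbociclib 0.0108%. No isotype did. The nearest were TUBA1A for JQ1 and paclitaxel, at 1.58 ± 0.57 (adjusted p = 0.220), and for JQ1 and palbociclib TUBA4A, at 0.69 ± 0.21 (adjusted p = 0.166), and TUBB4B, at 0.77 ± 0.27 (adjusted p = 0.214). TUBB4B was 1.85 times as high in JQ1+palbociclib as in palbociclib (1.77 to 1.92) and 0.734 times as high in JQ1-A as in DMSO (0.709 to 0.761).

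Within libraries, the isotypes were described in cells that passed the study's limits of at least 2000 genes and 1 to 15% mitochondrial UMIs, thinned to 10000 UMIs each, 445 to 972 cells in a library. TUBB had a UMI in 96.1 to 100% of cells and TUBA1B in 91.2 to 100%, whereas TUBB4B had one in 63.1% of palbociclib cells and 96.5% of paclitaxel cells. TUBA1A had a UMI in 32.9% of paclitaxel cells, 41.2% of pre-treatment cells and 53.3 to 71.0% of cells in the other libraries. TUBB2B had a UMI in at most 2.31% of cells. All cells were of 1 line, so no cell type that lacks tubulin was at hand to measure the share that free RNA gives.

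The spread of an isotype across cells was measured as the squared coefficient of variation in excess of that of counting, which is 0 for a gene at the same level in all cells. Its median over libraries was 0.797 for TUBB4B, 0.676 for TUBA1A, 0.600 for TUBA1B, 0.470 for TUBA1C, 0.433 for TUBA4A, 0.311 for TUBB2A, 0.269 for TUBB6 and 0.213 for TUBB. Only libraries with a mean of at least 0.5 UMI count, which were 7 for TUBA1A and 3 for TUBB2A (DMSO, paclitaxel and JQ1-B), so the median of TUBB2A is not over the same libraries as the others. The median gene of a library lay between 0.101 and 0.164. TUBB was thus the most even of these isotypes by its median, and lay between percentiles 56.9 and 75.9 of the genes of its library. TUBA1A lay between percentiles 94.4 and 98.8 and TUBB4B between 89.8 and 97.9.

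The spread of TUBA1B differed between libraries. It was 0.291 in pre-treatment, 0.446 in DMSO and 0.329 in paclitaxel, 0.571 to 0.737 in JQ1-A, JQ1-B, JQ1+paclitaxel and palbociclib, and 1.14 in JQ1+palbociclib. In that last library the 10th percentile of cells had 1 UMI of TUBA1B, the median cell 4 and the 90th percentile 16. In DMSO those values were 5, 12 and 35. TUBB4B showed a like pattern, at 0.295 to 0.387 in pre-treatment, DMSO and paclitaxel and 0.721 to 1.30 in the other 5.

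Isotypes went together from cell to cell. Over the cells of a library, the sums of alpha and beta UMIs had a Pearson correlation of 0.448 to 0.714. The correlation was 0.439 to 0.600 for TUBA1B with TUBA1C and 0.308 to 0.602 for TUBA1B with TUBB. It was 0.253 to 0.556 for TUBA1B with TUBA1A, and 0.147 to 0.301 for TUBA1B with TUBA4A. Parts of the 3′ end of TUBA1B also occur in TUBA1A and TUBA1C, so pairs of these can share reads. These correlations are descriptions, over cells that share a library, and fall with the level of the gene.

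Cells were then ranked within each library by their UMIs of the 30 mitotic genes, and the highest 25% were set against the lowest 25%. The tubulin total was 1.48 to 3.35 times as high in mitotic-high as in mitotic-low cells, with a median of 2.36. TUBB4B had the steepest ratio, 4.28 as a median and from 1.93 in paclitaxel to 8.10 in JQ1+paclitaxel. TUBA1C followed at 2.62 and TUBA1B at 2.36, then TUBB6 at 1.99, TUBA4A at 1.93, TUBB at 1.88, TUBB2A at 1.71 and TUBA1A at 1.42.

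The 8 tested isotypes were thus higher in mitotic-high cells of every library, with TUBA1A closest to level, in JQ1-B. Ranked by the S-phase genes, the order was partly different. TUBB4B again led at 2.62, TUBA1B had 1.93 and TUBA4A 1.92, and TUBA1A was last at 1.30. In JQ1+palbociclib, TUBA1B hardly differed between S-phase-high and S-phase-low cells, at a ratio of 1.02, while its ratio by mitotic genes was 2.12.

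**Figure D4:**
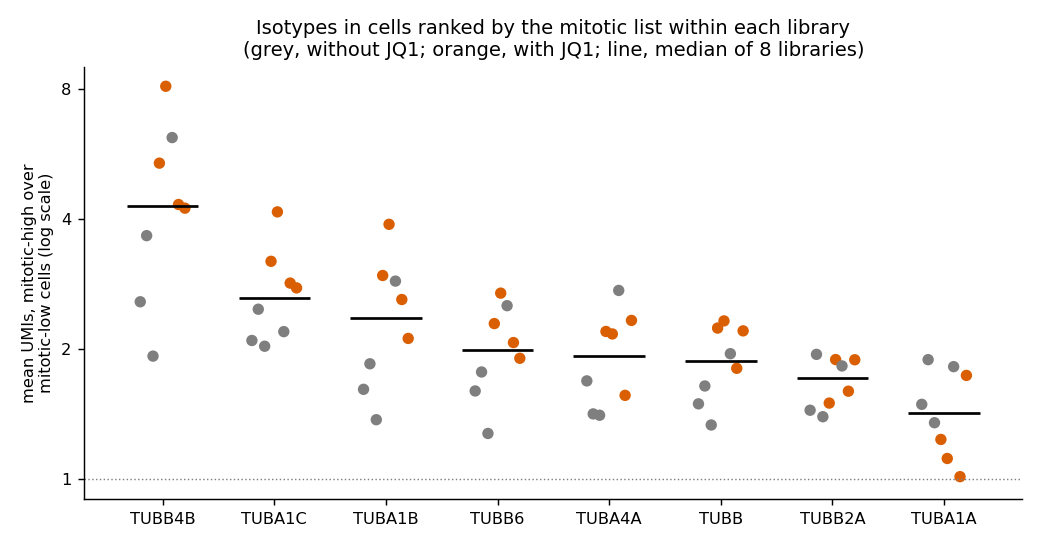
Ratio of mean UMIs in mitotic-high over mitotic-low cells (y axis, log scale) for 8 isotypes (x axis), with 1 point for each library, grey without JQ1 and orange with JQ1, and a line at the median. TUBB4B has the highest median at 4.28 and TUBA1A the lowest at 1.42, and no point lies below 1.

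Because libraries differed in how many cells carried mitotic RNA, the same limits were also applied to all libraries, with at most 7 mitotic UMIs for low and over 35 for high cells. Low cells were 1.09% of the paclitaxel library (8 cells), 7.42% of DMSO, 8.06% of pre-treatment and 33.1 to 40.1% of the other 5. High cells were 49.7% of paclitaxel, 36.2% of DMSO, 28.1% of pre-treatment and 13.3 to 19.97% of the others. Within these limits the mean of the mitotic UMIs was 3.62 to 4.61 in low cells and 52.9 to 57.3 in high cells of the 8 libraries. Tubulin levels were compared between libraries inside each of these limits, in mean UMIs per 10000. The mitotic genes that set the limits were themselves lower with JQ1 and with palbociclib, with median log2 fold changes of -0.40 and -0.43. The same limit may therefore not pick like cells with and without a drug, which was not tested.

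TUBA1B remained lowest in the palbociclib libraries on both sides. Low cells held 4.04 in palbociclib and 4.42 in JQ1+palbociclib, against 6.50 to 11.4 in the other 6 libraries. High cells held 11.1 and 11.3 against 16.7 to 20.4. Refitted on the high cells alone, TUBA1B had a log2 fold change of -0.75 ± 0.12 with palbociclib (adjusted p = 0.0394), and on the low cells alone -0.87 ± 0.19 (adjusted p = 0.111), next to -0.97 for all cells. Of all genes, 0.15% were called with palbociclib in high cells and 0.0935% in low cells. The difference in TUBA1B was thus seen on both sides of the mitotic ranking, with a call on the high side only.

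For JQ1, the fits inside these limits differed by isotype, with 7.55% of all genes called in low cells and 23.8% in high cells. Those on low cells rest on 8 cells for paclitaxel. Both fits use limits set on genes of which 17 of 30 were called lower with JQ1 over all cells, so calls inside them carry that limit. TUBA1B had -0.01 in both low and high cells. TUBB had -0.26 in both, and lost its call (adjusted p = 0.309 and 0.0996). TUBA4A had -0.69 in high cells and kept its call (adjusted p = 0.0115), and -0.43 in low cells (adjusted p = 0.248). TUBB4B, not called over all cells, had 0.90 ± 0.20 in low cells (adjusted p = 0.00882) and 0.66 ± 0.13 in high cells (adjusted p = 0.00443). Its mean in high cells was 6.74 to 9.45 in the 4 JQ1 libraries and 3.45 to 7.0 in the others, so the groups overlapped, with the lowest value in palbociclib. In low cells TUBB4B held 1.42 to 2.21 with JQ1, highest in JQ1-B, and 0.562 to 1.45 without, lowest in palbociclib. The groups overlapped there too, as JQ1-A (1.43) and JQ1+paclitaxel (1.42) lay below pre-treatment (1.45). TUBA1A had 0.67 in low cells (adjusted p = 0.0377) and 0.83 in high cells (adjusted p = 0.0706). High cells held 0.503 UMIs of TUBA1A in paclitaxel and 0.976 in pre-treatment, below the 1.39 to 2.44 of the other 6 libraries. Low cells did not show this order, since the 8 low cells of paclitaxel held 1.5, above DMSO at 1.33, and the lowest value was 0.719 in palbociclib.

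**Figure D5:**
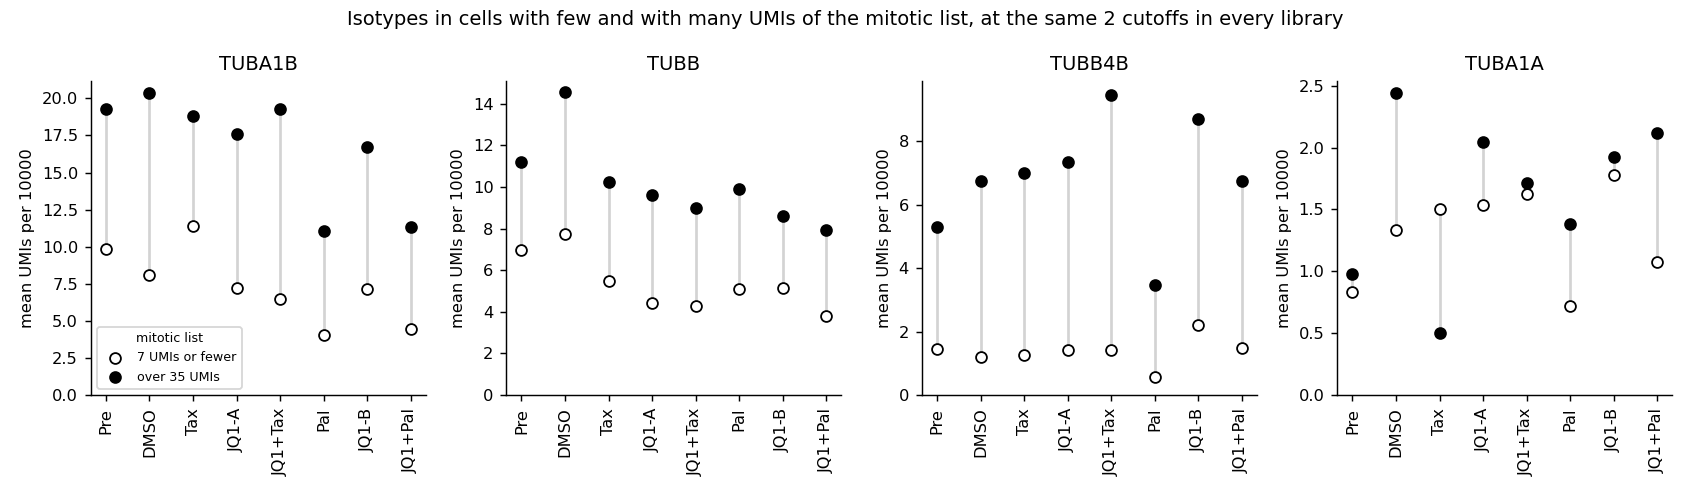
Mean UMIs per 10000 (y axis, from 0) of TUBA1B, TUBB, TUBB4B and TUBA1A in cells with at most 7 (open) and over 35 (filled) UMIs of the mitotic genes, in each library (x axis). TUBA1B is lowest in palbociclib and JQ1+palbociclib for both kinds of cell, and the open point of paclitaxel rests on 8 cells.

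The proteins that fold, nucleate, bind and modify tubulin were described from lists of genes. The folding list holds 20 genes of the chaperonin CCT, prefoldin and the tubulin cofactors, which bring new tubulin to its assembled state. With JQ1, 8 of 20 were called lower and 3 higher, beside the 19.7% and 17.8% of all genes given above, with a median log2 fold change of -0.31. The largest fall was that of PFDN2, a prefoldin subunit, which fell by 0.75 ± 0.14 (adjusted p = 0.00556) and held 145 to 163 CPM in the JQ1 libraries and 180.1 to 405 in the others. The largest rise was that of TBCD, a cofactor for beta tubulin, which had 0.77 ± 0.13 (adjusted p = 0.00358). It held 10.985 to 18.9 CPM in the JQ1 libraries and 7.94 to 10.995 in the others, so the groups overlapped slightly. With palbociclib and with paclitaxel none of the 20 was called.

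Of the 12 genes of the gamma tubulin ring, which nucleates microtubules, 11 were tested, and 4 were called lower with JQ1 and none higher, beside 19.7% and 17.8% of all genes. CDK5RAP2, which anchors the ring at centrosomes, fell by 0.69 ± 0.15 (adjusted p = 0.0108), with 12.4 to 13.8 CPM in the JQ1 libraries and 16.9 to 30.8 in the others. Among 12 other tubulin genes, 8 had a row and 4 were tested. Delta tubulin, TUBD1, fell by 0.52 ± 0.16 with JQ1 (adjusted p = 0.0358) from 5.68 ± 0.612 (SD, n = 4) to 3.43 ± 0.238 CPM (n = 4), as the larger fall of 2 called lower.

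Of 23 microtubule-binding genes, 20 were tested, and with JQ1 5 were called higher and 2 lower, beside 17.8% and 19.7% of all genes. DCTN1, the dynactin subunit that links dynein to microtubules, had 0.81 ± 0.11 (adjusted p = 0.00210). MAP7D3, which recruits kinesin to microtubules, fell by 0.998 ± 0.14 (adjusted p = 0.00199) and held 21.3 to 27.1 CPM in the JQ1 libraries against 45.5 to 70.3 in the others. Stathmin, STMN1, which binds free tubulin dimers, was not called. Its levels were 223 and 185 CPM in the palbociclib libraries and 265 to 433 in the others, and its fold change with palbociclib was -0.68 ± 0.15 (adjusted p = 0.0805).

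Of 14 genes that modify or sever tubulin, 11 were tested. With JQ1, beside the same shares of all genes, 2 were called higher, led by the tubulin ligase TTLL5 at 0.50 ± 0.12 (adjusted p = 0.0146), and 2 lower, led by the tubulin deacetylase HDAC6 at -0.62 ± 0.21 (adjusted p = 0.0474). TTLL5 held 8.37 to 10.8 CPM in the JQ1 libraries and 7.09 to 8.76 in the others. HDAC6 held 4.58 to 7.04 and 6.88 to 13.8 CPM, highest in DMSO, so the groups overlapped for both genes. TTC5, of the autoregulation described above, held 4.17 to 8.03 CPM and was not called for any drug, with adjusted p-values of 0.607, 0.297 and 0.897 for JQ1, palbociclib and paclitaxel. ABCB1, which pumps paclitaxel out of cells, was at 0 in pre-treatment and at most 1.88 CPM, in JQ1+paclitaxel, too low to be tested. No gene of these lists was called with palbociclib or paclitaxel.

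Across the 8 libraries, the genes whose log2(CPM + 1) was most like that of TUBA1B, among 9287 others, were KIAA0586, RSRC2 and RHNO1, with Pearson correlations of 0.980, 0.977 and 0.976. Those most like TUBB were CDK9, GOT1 and ARPC5, with 0.984, 0.983 and 0.982. These are the highest of many correlations over 8 libraries that share drugs and experiments, and serve only as a description. No isotype was among them.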

How the data were processed

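Single-cell RNA of 8 libraries of SUM159 cells was measured with 10x Genomics 3′ v2 chemistry, and the authors aligned reads to hg19 and counted UMIs with Cell Ranger. The deposited table gives raw UMI counts for 18955 genes and 5738 cells, and a second deposited table gives each cell's library. The authors' filter on cells was not yet applied, and 5575 cells (97.2%) passed it. No per-sample column was left out. How reads shared between tubulin isotypes were handled was not given in the sources used here.

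For each library the counts of its deposited cells were added up, and genes with at least 5 CPM in at least 2 libraries were tested with the quasi-likelihood test of edgeR 4.0.16 in R 4.3.3, with TMM factors (0.902 to 1.10) and an additive term for each drug (4 residual degrees of freedom). A second fit held both interactions (2 residual degrees of freedom). SEs are approximate, as the fold change over the root of F. DESeq2 1.42.0 was an alternative. Cell values used cells with at least 10000 UMIs, thinned to that number, which left out 88 shallower cells. No doublet caller was run on this single line. Intervals of ratios and shares are exact, at 95%, and cover counting error only. Tests between single libraries were not made.

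The members and gene lists were chosen with earlier results of these data known, and refits on cells of few or many mitotic UMIs and on library totals were added after seeing the data. All 10 isotypes are named. From each list the text names the called gene with the largest rise and fall for each drug, and TTC5, ABCB1 and STMN1 in any case, with the 3 genes most correlated with the leading alpha and beta isotype.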

Additional observations from a re-analysis of the deposited data

How the results depend on the processing

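Of 448 alternative values for the fold changes of isotypes, 394 kept their direction and their side of the threshold, 16 lost a call, 19 gained one and 19 changed direction. All 120 alternatives for the JQ1 difference in shares and totals and all 12 for cell spread stayed within the spread. Differences in shares with palbociclib were not among those alternatives. With JQ1, 2062 genes were called at a filter of 20 CPM and 463 with the experiment as a term, and the isotypes called were 0 with that term and 4 on library totals. With palbociclib, 205 genes were called without a filter, 16 at 20 CPM, 0 with the experiment as a term and 515 by DESeq2, and the isotypes called were 2 without a filter, 0 with the experiment as a term, 0 in mitotic-low cells and 5 by DESeq2. With paclitaxel, 2 genes were called without a filter, 2 within its own experiment and 9 by DESeq2. When each library was left out in turn, the genes called ranged from 1760 to 4190 for JQ1, 0 to 938 for palbociclib and 0 to 4 for paclitaxel, and the isotypes called from 0 to 2 for JQ1 and 0 to 5 for palbociclib. A treatment left with a single library was then assumed to vary like the others.

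Fold changes that crossed 0 were those of TUBA1C (0.20, mitotic-high cells), TUBB6 (0.33, mitotic-low cells), TUBB2A (-0.057, JQ1+paclitaxel experiment alone) and TUBB4B (-0.18, the same) for JQ1. For paclitaxel they were those of TUBA4A without a filter (0.028) and, in mitotic-low cells, TUBA1A (0.087), TUBA1B (-0.054), TUBB4B (-0.27) and TUBB6 (-0.050). With single libraries left out, palbociclib ranged from -0.585 to 0.22 for TUBA1A and -0.74 to 0.058 for TUBA4A, and paclitaxel from -1.54 to 0.074 for TUBA1A, -0.34 to 0.24 for TUBA4A, -0.26 to 0.13 for TUBB2A, -0.094 to 0.56 for TUBB4B and -0.050 to 0.41 for TUBB6. The cause was not tested.

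The refits on mitotic-low and mitotic-high cells and on library totals were chosen after seeing the data. No paired test was made, and the fit with the experiment as a term, given above, is the closest to one. Libraries with and without JQ1 can be set side by side within an experiment. For TUBA4A the ratio was 0.440 for JQ1-A over DMSO, 0.383 for JQ1+paclitaxel over paclitaxel and 0.924 for JQ1+palbociclib over palbociclib. For TUBB these ratios were 0.550, 0.659 and 0.753. TUBB2B and TUBB3.1 missed the filter over all cells, and TUBB3.1, which passed it in mitotic-high cells, was not called there for any drug. With 1 library per treatment and experiment a palbociclib effect rests on 2 libraries of 1 experiment.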
